A study of Mus musculus with 16 samples.

Results

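Gene expression at the start and at the end of the light phase was compared in the lungs of young mice. The comparison set 4 arrays labelled young and ZT12 against 4 labelled young and ZT0, 8 of the series' 16 arrays, and covered every gene with a probe set that carries 1 gene symbol. The mice were male C57BL/6J, 2 months old, specific pathogen-free, on chow and water at will in a 12-h light and 12-h dark cycle. In this zeitgeber scale the lamps go on at ZT0 and off at ZT12, when the active night of a mouse begins. Whole lungs had been flushed with cold PBS through the right ventricle, frozen, and a piece of each was taken for RNA. Each RNA was read on 1 Affymetrix array of 41345 probe sets. The other 8 arrays are lungs of 18-month-old male mice of the same strain at the same times, with 4 arrays at each time. They entered the fit for its estimate of spread and served as the second test of a direction. The titles number the samples without saying that each is a different animal, so p-values measure the spread between these samples.

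Nearly every cell holds a molecular clock whose activators drive some genes through E-boxes in their promoters while other clock factors hold or release genes through other elements, and the lung also receives daily signals from glucocorticoids, feeding, body temperature and the autonomic nerves. The endoplasmic reticulum (ER) is where secreted and membrane proteins fold with the help of chaperones, and it matters to a tissue that secretes surfactant, mucus and matrix. When unfolded proteins build up there, the sensors encoded by Atf6, Ern1 and Eif2ak3 start the unfolded protein response, which raises the chaperones. The clock genes, the heat shock genes of the cytosol and the extracellular matrix genes, which hold many of the largest changes, are left aside here.

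Sftpc, a surfactant protein of alveolar type 2 cells, stood between 13.26 and 13.35 on the deposited log2 scale on the 8 young arrays. Scgb1a1, the main secretory protein of club cells, stood between 13.37 and 13.45. Both are among the brightest levels of the files, so the arrays carry the markers of their labelled tissue. Some young arrays stood apart in genes of other tissues or cells. On ZT12 array 2 the median of 9 liver genes lay 2.11 above each gene's mean over all 16 arrays, against -0.37 to 0.10 on the other young arrays, and Alb, which encodes albumin of hepatocytes, read 11.76 there against 7.01 to 8.79. ZT12 array 4 had the highest medians of the B and plasma cell list (0.45, others -0.83 to -0.02) and of the platelet and red cell list (0.62, others at most 0.03), and the lowest correlations with its group (0.981 to 0.985). ZT0 array 4 had the highest median of the heat shock list (0.44, other ZT0 arrays 0.14 to 0.20). Neutrophil markers spread from -0.69 to 0.58 within both groups alike, and cardiac muscle markers from -0.99 to 0.37. In whole lung, fewer cells of a type and less RNA per cell cannot be told apart.

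**Figure D1:**
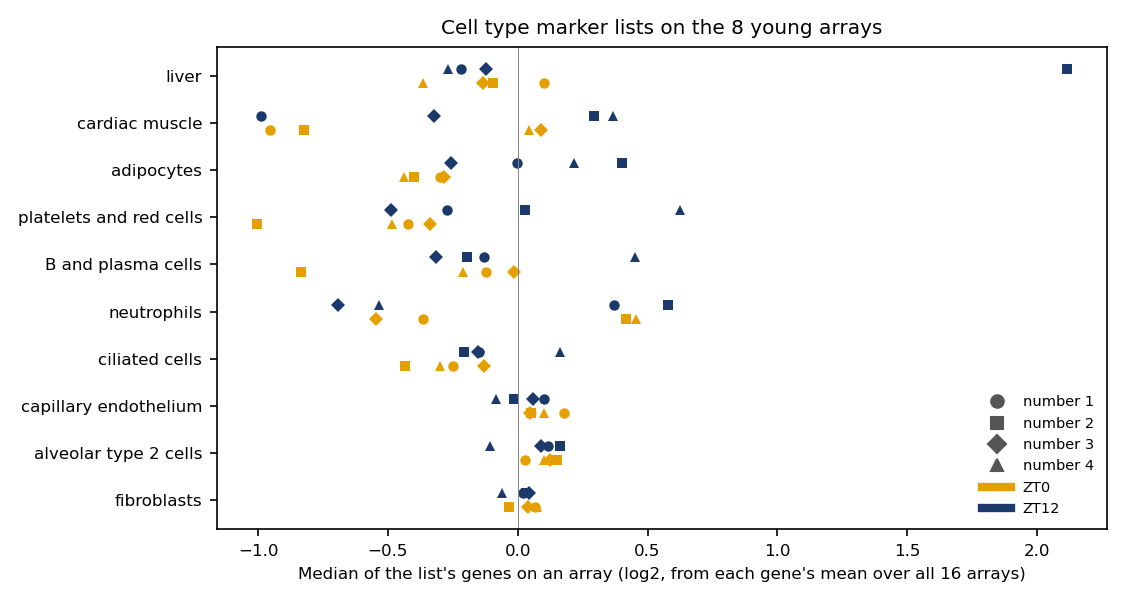
Median level of 10 cell type marker lists on each of the 8 young arrays (x axis, log2 units relative to each gene's mean over all 16 arrays), with ZT0 arrays in orange, ZT12 arrays in dark blue and the array number as the marker shape. The liver list stands at 2.11 on ZT12 array 2 alone, and the lists of alveolar type 2 cells, fibroblasts and capillary endothelium stay within -0.11 to 0.18.

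Of 15626 genes tested, 492 passed an adjusted p of 0.05 in limma, which is 3.15%. At ZT12, 213 were higher (1.36%) and 279 lower (1.79%). After centring each array on its median the split was 240 higher and 194 lower. The mean was higher at ZT12 in 50.9% of all genes tested, and 16.7% had an unadjusted p under 0.05. Genes of a list can vary together across arrays, so counts of positive changes are not independent tests. Most changes were small. The median size was 0.35 among the higher genes on the log2 scale, and the lower genes had a median of -0.34. A change of 2-fold or more was called for 21 genes, 11 higher and 10 lower, clock, heat shock and matrix genes included. The ZT12 and ZT0 arrays did not overlap in 479 of the 492 called genes (97.4%), against 11.1% of all genes tested, 5.31% with all ZT12 arrays higher and 5.82% with all lower. The count depended on single arrays: without ZT0 array 4 it was 258, without ZT12 array 3 275, without ZT0 array 1 301, and without ZT0 array 2 323. In all 8 fits that each left out 1 young array, 209 genes remained called, 92 higher and 117 lower. All changes below are log2 values, ZT12 minus ZT0, with the standard error of the fit and a p adjusted over all genes tested.

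**Figure D2:**
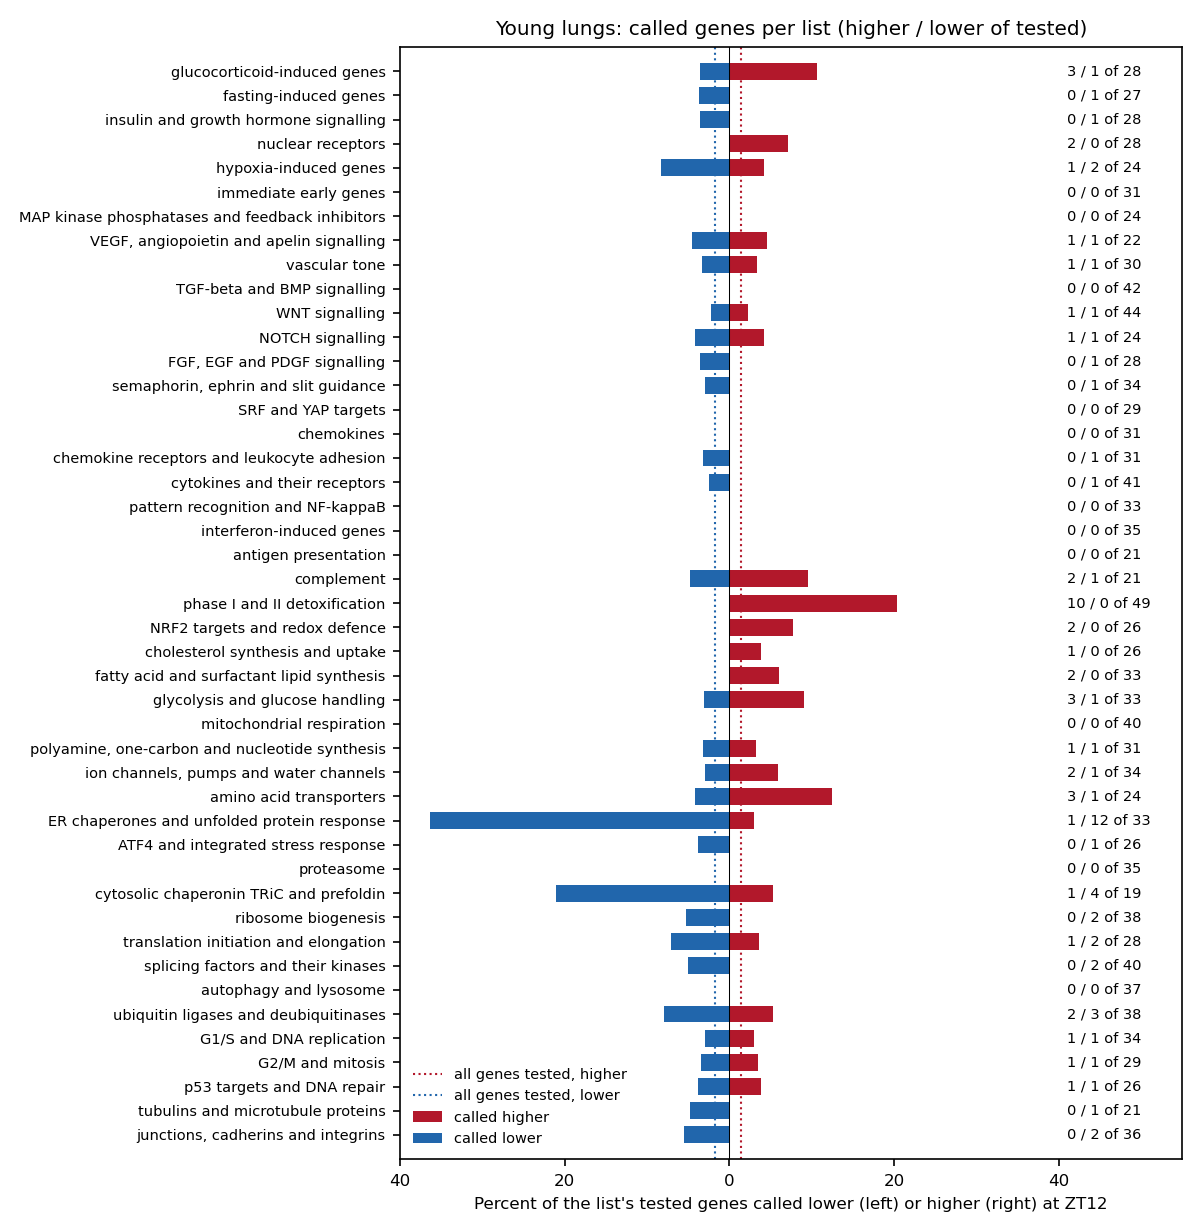
Percent of the tested members of each gene list, cell type markers and lists drawn up after the values were seen left out, that were called higher (red, to the right) or lower (blue, to the left) at ZT12 in young lungs, with dotted lines at the 1.36% and 1.79% of all genes tested and the counts as higher / lower of tested at the right. To the left the longest bars are those of the ER chaperones, with 12 of 33 lower, and of TRiC and prefoldin, with 4 of 19, and to the right that of detoxification, with 10 of 49 higher.

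Several ER chaperones were lower at lights off. Hspa5, which encodes BiP, the main chaperone of the ER lumen, read 9.69, 9.81, 9.77 and 10.03 on the ZT0 arrays and 9.25, 9.15, 9.05 and 9.13 on the ZT12 arrays. Every ZT12 array lay below every ZT0 array, and Hspa5 fell by 0.68 (SE 0.082, adjusted p = 0.000195), a 1.6-fold lower level. Manf, a small ER protein that binds BiP and can be secreted, read 7.28, 7.43, 7.26 and 7.45 on the ZT0 arrays and 6.91, 6.83, 6.89 and 6.81 on the ZT12 arrays and fell by 0.49 (SE 0.068, adjusted p = 0.000681). Pdia6, a disulfide isomerase, read 10.74, 10.74, 10.84 and 11.03 on the ZT0 arrays and 10.56, 10.45, 10.47 and 10.38 on the ZT12 arrays and fell by 0.38 (SE 0.064, adjusted p = 0.0038). In these genes the groups did not overlap, and ZT0 array 4 was the highest array of the 8. Hsp90b1, the HSP90 of the ER, fell by 0.33 (SE 0.058, adjusted p = 0.0044). Calr, calreticulin, which binds sugar chains of folding glycoproteins and calcium, fell by 0.32 (SE 0.057, adjusted p = 0.00563). Both are bright genes, near 11.92 and 11.63 at ZT0, and both stood lower on all 4 ZT12 arrays than on any ZT0 array. Hyou1, a large chaperone that recharges BiP, fell by 0.42 (SE 0.081, adjusted p = 0.0101). Xbp1, the transcription factor that Ern1 activates by splicing, fell by 0.29 (SE 0.062, adjusted p = 0.0188). Syvn1, the ubiquitin ligase of ER-associated degradation, fell by 0.26 (SE 0.058, adjusted p = 0.0231).

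Of the 33 tested genes of the ER chaperone and unfolded protein response list, 12 fell, 1 rose and 20 were not called, with a median of -0.17 against 0.0024 over all genes tested. The shares of all genes tested were 1.79% called lower and 1.36% called higher. The other 4 that fell were Sdf2l1 (-0.58), Creld2 (-0.41), Derl2 (-0.24) and Dnajb11 (-0.23), which act in BiP's cycle or in clearing misfolded proteins. Fkbp11, a prolyl isomerase of the ER, went the other way: it read 6.15, 6.24, 6.50 and 6.60 on the ZT0 arrays and 7.13, 6.87, 6.95 and 6.89 on the ZT12 arrays and rose by 0.59 (SE 0.097, adjusted p = 0.00324). The sensors of the response were not called, at 0.09 (adjusted p = 0.402) for Atf6, 0.17 (adjusted p = 0.179) for Ern1 and -0.06 (adjusted p = 0.625) for Eif2ak3. Herpud1, an ER stress gene of the degradation pathway, had a change of 0.12 (adjusted p = 0.462). Ddit3, which encodes the stress factor CHOP, fell by 0.35 (SE 0.09, adjusted p = 0.0438). It was the 1 call among 26 tested genes of ATF4 and the integrated stress response. That list had 1 fall without ZT12 array 2 or 4, 0 without any other single young array, and 0 with median centring. The ER list median and that of the heat shock list were both highest on ZT0 array 4 (0.22 for the ER list, other ZT0 arrays 0.02 to 0.09), and the part of that array in the result was measured by leaving it out: 6 genes then fell. Without ZT12 array 3 the number was 6 and without ZT0 array 2 it was 7, and with median centring 8. Without ZT0 array 4 Hspa5 had a change of -0.61 (adjusted p = 0.000656). Sdf2l1 then had a change of -0.44 (adjusted p = 0.0858) and Creld2 of -0.29 (adjusted p = 0.0671), neither called. In old lungs Hspa5 changed by -0.83, Manf by -0.64, Pdia6 by -0.48 and Fkbp11 by 0.43, each past the same threshold.

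**Figure D3:**
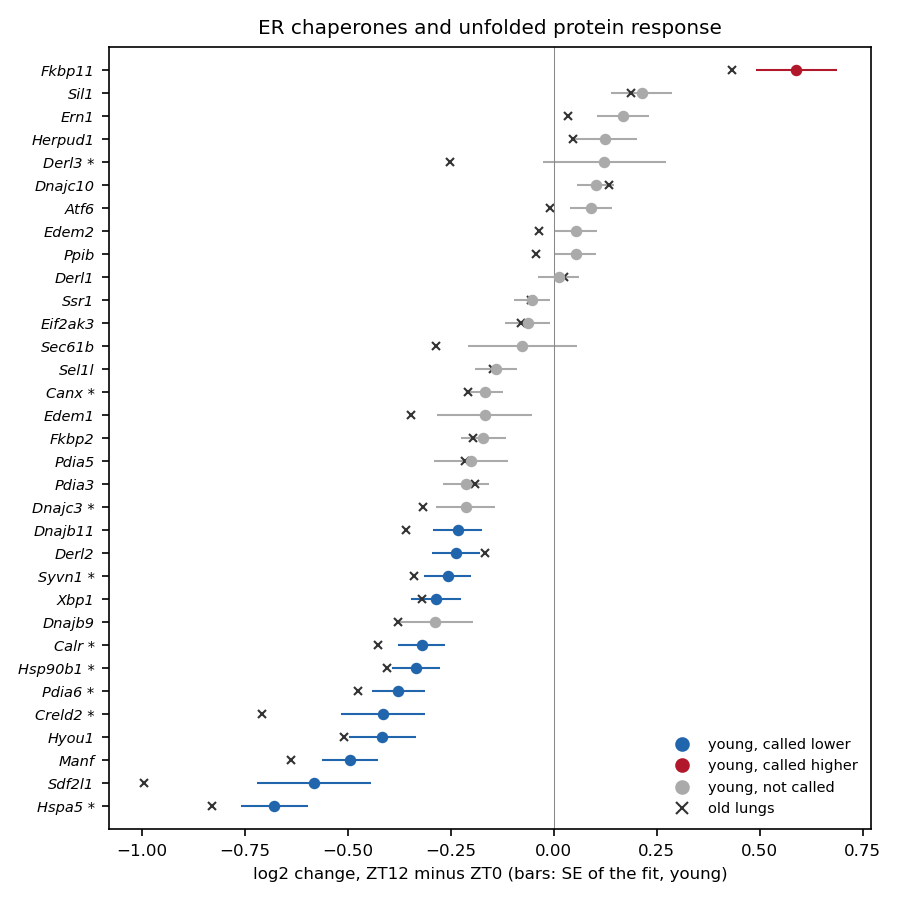
Change of each tested member of the ER chaperone and unfolded protein response list (x axis, log2, ZT12 minus ZT0), with young lungs as points with standard error bars, coloured by call, and old lungs as crosses. Asterisks mark genes whose promoter window holds the 19-base ER stress element; the 12 called lower run from -0.23 (Dnajb11) to -0.68 (Hspa5), and Fkbp11 alone was called higher.

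The promoters of several of these chaperones share a known element. The ER stress response element, spelled CCAAT, then any 9 bases, then CCACG, joins a CCAAT box, bound by NF-Y, to a CCACG that ATF6 and XBP1 bind. It was searched on both strands in RefSeq promoter windows of GRCm38.p6, 250 bases before to 50 after each start, and was chosen for this search after the values were seen. A gene can have several windows. It occurs in 39 of 32851 windows (0.119%) and in windows of 19 of the 12129 tested genes that have one (0.157%). Of the 10 called-lower ER genes with a window, 6 hold it, and of the 17 uncalled ones 3 do (Canx, Dnajc3 and Derl3). Over all 19 genes, 6 were called lower, 0 higher, 15 had a lower mean at ZT12, and the median change was -0.204. The 10 outside the ER list had 0 calls and 7 lower means. The stretches of promoter below are shown because they carry the element, in capitals, in the genes that fell. Each runs 5′ to 3′ toward its gene, and capitals that begin with CGTGG are the element read on the opposite strand.
Hspa5 (chr2:34771840-34772089, plus strand): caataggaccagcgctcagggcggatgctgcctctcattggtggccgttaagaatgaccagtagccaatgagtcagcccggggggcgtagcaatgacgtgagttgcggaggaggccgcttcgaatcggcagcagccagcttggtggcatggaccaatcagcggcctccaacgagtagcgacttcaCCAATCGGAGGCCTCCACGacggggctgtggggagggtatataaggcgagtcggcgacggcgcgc
Hsp90b1 (chr10:86705445-86705694, minus strand): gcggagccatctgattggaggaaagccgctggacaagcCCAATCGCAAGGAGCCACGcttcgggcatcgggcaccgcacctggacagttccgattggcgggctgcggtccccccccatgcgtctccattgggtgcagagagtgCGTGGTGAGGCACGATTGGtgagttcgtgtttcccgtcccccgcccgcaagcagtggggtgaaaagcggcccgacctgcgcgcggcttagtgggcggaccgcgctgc
Calr (chr8:84847055-84847114, minus strand): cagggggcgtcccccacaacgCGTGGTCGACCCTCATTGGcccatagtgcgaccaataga
Pdia6 (chr12:17266470-17266529, plus strand): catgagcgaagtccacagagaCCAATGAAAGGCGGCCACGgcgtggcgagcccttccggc
Creld2 (chr15:88819499-88819558, plus strand): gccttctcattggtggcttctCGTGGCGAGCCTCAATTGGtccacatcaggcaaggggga
Syvn1 (chr19:6046511-6046570, plus strand): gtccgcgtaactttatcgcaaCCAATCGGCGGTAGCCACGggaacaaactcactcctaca
The element begins 65 bases before the start of Hspa5, 162 before Calr, 98 before Pdia6, 126 before Creld2 and 44 before Syvn1, and Hsp90b1 holds 2, at 212 and 107 bases. A CCAAT alone, which is part of the element, occurs in 44.3% of called-lower and 41.1% of tested genes with a window. In the ER list it occurs in 9 of the 10 called-lower genes (90%), 6 of which hold the whole element, and in 11 of the 17 uncalled ones (64.7%). A match describes these letters and is not evidence of binding.

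Calls were also made among other genes of protein folding, transport, translation and turnover. Among all genes tested 1.36% were called higher and 1.79% lower. Of 19 tested genes of the cytosolic chaperonin TRiC and its partner prefoldin, which fold actin and tubulin, 4 fell, 1 rose and 14 were not called, with a median of -0.03. Cct6a, a chaperonin subunit, read 9.87, 9.81, 9.71 and 10.04 on the ZT0 arrays and 9.46, 9.53, 9.49 and 9.60 on the ZT12 arrays and fell by 0.34 (SE 0.063, adjusted p = 0.00655). Cct3, Cct4 and Cct8 had changes of -0.29, -0.25 and -0.21, and Tbcd, a tubulin folding cofactor, one of 0.22. Cct6a was called in every fit that left out 1 young array, but the number of subunits that fell was 1 without ZT0 array 2, ZT0 array 4, or ZT12 array 1, 3 or 4, and 2 without ZT0 array 3. It was also 1 with median centring. Of the 35 tested proteasome genes 0 were called by limma, with 4 at an unadjusted p under 0.05, and of 37 autophagy and lysosome genes 0, with 1 unadjusted. That level was reached by 16.7% of all genes tested. The largest proteasome value was that of Psmb1, 0.19 (adjusted p = 0.0662). In a list of ER translocation and export genes drawn up after the values were seen, Magt1, a subunit of the sugar-transferring complex, fell by 0.33 (SE 0.058, adjusted p = 0.00503) and Sec24a, a coat protein of export vesicles, fell by 0.24 (SE 0.049, adjusted p = 0.0133). Eef2k, the kinase that slows translation elongation, read 7.11, 7.15, 7.10 and 7.05 on the ZT0 arrays and 7.56, 7.52, 7.42 and 7.60 on the ZT12 arrays and rose by 0.42 (SE 0.059, adjusted p = 0.000851). Eif4g3, an initiation factor, fell by 0.33 (SE 0.067, adjusted p = 0.0131), and Heatr1, a ribosome assembly factor, fell by 0.32 (SE 0.052, adjusted p = 0.00263). Among ubiquitin ligases and proteases, 2 of 38 rose and 3 fell, and 1 of the rises was Usp2, which is also in the clock list left aside here. Klhl13, an adaptor of the CUL3 ligase, fell by 0.71 (SE 0.10, adjusted p = 0.00107).

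The 15 largest rises and 15 largest falls outside the clock, heat shock and matrix lists came from different kinds of gene, from vessel signals to lipid and folate enzymes. They were chosen for their size, so their order is a description.

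**Figure D4:**
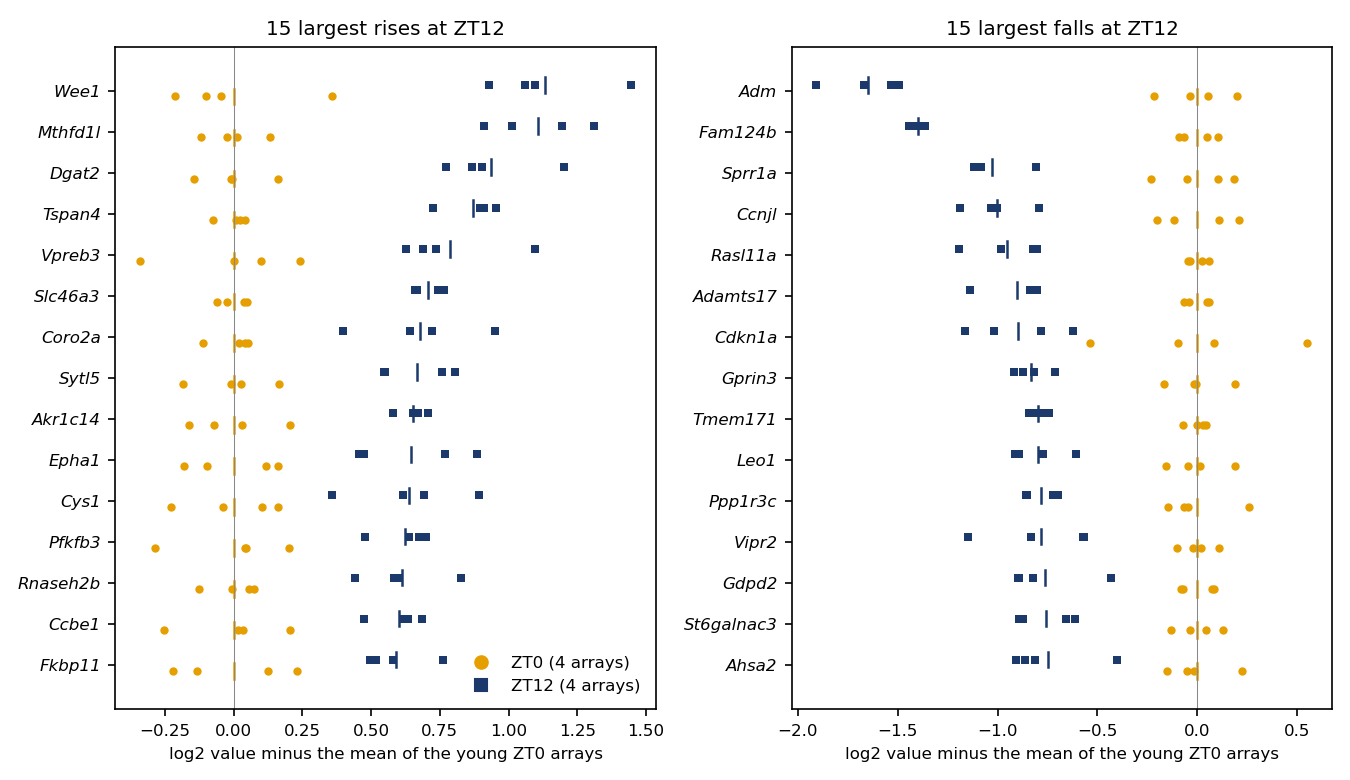
Log2 value of the 15 genes with the largest rises (left) and the 15 with the largest falls (right) on each young array, relative to the gene's mean over the 4 young ZT0 arrays, with ZT0 as orange circles, ZT12 as dark blue squares and ticks at the group means. The groups do not overlap in any of the 30 genes, which was a condition of the choice; Adm fell by 1.65, the most, and Wee1 rose by 1.13, the most.

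Peptide signals to vessels and airways were among the falls. Adm encodes adrenomedullin, a peptide that widens vessels and tightens the endothelial barrier. It read 7.43, 7.25, 7.66 and 7.52 on the ZT0 arrays and 5.97, 5.93, 5.56 and 5.79 on the ZT12 arrays. The lowest ZT0 array stood well above the highest ZT12 array, and Adm fell by 1.65 (SE 0.13, adjusted p = 2.69e-06), to a 3.14-fold lower level. Its receptor is Calcrl joined to Ramp2 or Ramp3. Calcrl had a change of -0.07 (adjusted p = 0.418), Ramp2 of 0.07 (adjusted p = 0.658) and Ramp3 of 0.06 (adjusted p = 0.883). Vipr2, a receptor of vasoactive intestinal peptide that relaxes smooth muscle, read 9.35, 9.48, 9.39 and 9.27 on the ZT0 arrays and 8.53, 8.80, 8.22 and 8.79 on the ZT12 arrays and fell by 0.78 (SE 0.12, adjusted p = 0.00161), without overlap. The related receptor Vipr1 had a change of 0.14 (adjusted p = 0.447). Avpr1a, a vasopressin receptor of smooth muscle, fell by 0.58 (SE 0.14, adjusted p = 0.0319), but was called in 2 of the 8 fits that left out an array. Of the 30 tested vascular tone genes, 1 fell, Adm, and 1 rose, Ptgis, the synthase of prostacyclin, which relaxes vessels. Ptgis read 8.62, 8.64, 8.65 and 8.67 on the ZT0 arrays and 9.15, 9.03, 8.93 and 9.01 on the ZT12 arrays and rose by 0.39 (SE 0.055, adjusted p = 0.000963). Their list median was -0.05, and of all genes tested 1.36% were called higher and 1.79% lower. Igfbp3, a binding protein of insulin-like growth factors, fell by 0.74 (SE 0.14, adjusted p = 0.00938).

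In a list labelled as maturation of lymphatic growth factors, drawn up after the values were seen, 4 of 10 tested genes rose, against 1.36% of all genes tested. The label does not describe F3 and Fgfbp1, whose roles are given below. The 4 genes were picked for their values and support no statement on vessel growth. Ccbe1, a secreted helper in the processing of VEGF-C, read 7.27, 7.25, 6.98 and 7.44 on the ZT0 arrays and 7.85, 7.87, 7.92 and 7.71 on the ZT12 arrays and rose by 0.60 (SE 0.076, adjusted p = 0.000326). Vegfd, a ligand of the lymphatic receptor Flt4, read 9.60, 9.54, 9.51 and 9.33 on the ZT0 arrays and 9.98, 9.89, 9.77 and 10.00 on the ZT12 arrays and rose by 0.41 (SE 0.072, adjusted p = 0.00457). In both genes the lowest ZT12 array exceeded the highest ZT0 array. Their partners were not called: Vegfc had a change of -0.09 (adjusted p = 0.525), Flt4 of 0.07 (adjusted p = 0.698) and Adamts3, the protease that Ccbe1 assists, of 0.20 (adjusted p = 0.0874). Of the other 2 that rose, F3, tissue factor, which starts coagulation, rose by 0.58 (SE 0.089, adjusted p = 0.00176) and Fgfbp1, a carrier of fibroblast growth factors, rose by 0.59 (SE 0.085, adjusted p = 0.00114). All 4 were called in each of the 8 fits that left out 1 young array. Unc5b, a guidance receptor of endothelial cells, fell by 0.34 (SE 0.056, adjusted p = 0.00304), and Pdgfra, the receptor that marks many lung fibroblasts, fell by 0.44 (SE 0.077, adjusted p = 0.00508). Of 22 tested genes of VEGF, angiopoietin and apelin signalling 1 rose and 1 fell, with a median of -0.10. Of 42 genes of TGF-beta and BMP signalling 0 were called by limma (5 at an unadjusted p under 0.05, against 16.7% of all genes tested).

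Capillary endothelial markers held no calls. Of 26 tested 0 were called by limma (7 at an unadjusted p under 0.05), 7 had a positive change, and the median was -0.10. Over all genes tested these shares were 3.15% called, 16.7% at that unadjusted level and 50.9% positive. In a list this short, 0 calls is near the share of all genes and shows no lack of change. Among endothelial regulators picked after the values were seen, Lipg, endothelial lipase, fell by 0.48 (SE 0.083, adjusted p = 0.00457). Rasgrp3, an activator of RAS in vessels, fell by 0.48 (SE 0.089, adjusted p = 0.00702), and Fgd5, an activator of CDC42 in endothelial cells, fell by 0.45 (SE 0.085, adjusted p = 0.00823). Mmrn2, an endothelial matrix protein, rose by 0.38 (SE 0.075, adjusted p = 0.0123). Because these members were picked for their values, they support no statement on the cell type. The capillary list was lowest on ZT12 array 4 (-0.08, other ZT12 arrays -0.02 to 0.10, ZT0 arrays 0.05 to 0.18). Without that array Lipg, Rasgrp3 and Fgd5 were still called. The falls in the picked list of endothelial regulators, 9 of 37 tested against 1.79% of all genes, then numbered 4. With both young arrays numbered 4 left out they numbered 1.

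Enzymes of folate, fat and sugar metabolism were among the rises. Mthfd1l, the mitochondrial enzyme that releases formate from folate, read 6.37, 6.49, 6.24 and 6.33 on the ZT0 arrays and 7.67, 7.27, 7.55 and 7.37 on the ZT12 arrays. Every ZT12 array lay above every ZT0 array, and Mthfd1l rose by 1.11 (SE 0.11, adjusted p = 3.48e-05), a 2.15-fold higher level. The neighbouring enzymes of the pathway were not called, at -0.09 (adjusted p = 0.758) for Mthfd2, 0.12 (adjusted p = 0.573) for Shmt2 and -0.04 (adjusted p = 0.863) for Mthfd1. Dgat2, which makes triglyceride, read 7.04, 7.03, 6.90 and 7.21 on the ZT0 arrays and 7.91, 8.25, 7.82 and 7.95 on the ZT12 arrays and rose by 0.94 (SE 0.19, adjusted p = 0.0147). Its counterpart Dgat1 had a change of -0.14 (adjusted p = 0.507). The Dgat2 groups did not overlap. The adipocyte list, of which Dgat2 is a member, had medians of -0.44 to -0.28 at ZT0 and -0.26 to 0.40 at ZT12. In it 10 of 11 tested genes were positive, against 50.9% of all genes tested, and 1, Dgat2, was called. The part of the list in the Dgat2 result was not tested. Both Dgat2 and the adipocyte list were highest on ZT12 array 2, without which Dgat2 had a change of 0.85 (adjusted p = 0.0464).

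In sugar handling, Pfkfb3, whose product raises the activator of glycolysis, read 7.60, 7.93, 7.93 and 8.09 on the ZT0 arrays and 8.52, 8.59, 8.56 and 8.37 on the ZT12 arrays and rose by 0.62 (SE 0.086, adjusted p = 0.000753). Gbe1, the glycogen branching enzyme, read 8.09, 8.27, 8.28 and 8.15 on the ZT0 arrays and 8.57, 8.67, 8.56 and 8.49 on the ZT12 arrays and rose by 0.38 (SE 0.057, adjusted p = 0.00175). Ppp1r3c, the subunit that brings a phosphatase to glycogen and so promotes its synthesis, went down: it read 7.96, 7.86, 8.26 and 7.94 on the ZT0 arrays and 7.15, 7.31, 7.29 and 7.16 on the ZT12 arrays and fell by 0.78 (SE 0.079, adjusted p = 3.06e-05). None of the 3 showed overlap between the times, and each was called in all 8 fits that left out an array. Of the 33 tested genes of glycolysis and glucose handling, 3 rose, 1 fell and 29 were not called, with a median of 0.18 and 25 positive values. A positive change was found in 50.9% of all genes tested, of which 1.36% were called higher and 1.79% lower. Aldoc, an aldolase, rose by 0.24 (SE 0.062, adjusted p = 0.0442). Hk2, a hexokinase, had a change of 0.40 (adjusted p = 0.0686), Gys1, glycogen synthase, of 0.19 (adjusted p = 0.103) and Gyg, the primer of glycogen, of -0.39 (adjusted p = 0.0615). Of 40 mitochondrial respiration genes 0 were called by limma, with 3 at an unadjusted p under 0.05, against 16.7% of all genes tested. In this list 30 had a positive change, with a median of 0.04. Of 24 amino acid transporters 3 rose and 1 fell: Slc6a6, the taurine transporter, rose by 0.45 (SE 0.049, adjusted p = 6.36e-05), Slc1a5, a glutamine transporter, rose by 0.43 (SE 0.073, adjusted p = 0.00436), Slc6a14 rose by 0.34 (SE 0.073, adjusted p = 0.0174), and Slc43a2 fell by 0.28 (SE 0.064, adjusted p = 0.0271). Abca1, which exports cholesterol, rose by 0.36 (SE 0.075, adjusted p = 0.0149).

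Some detoxifying enzymes were higher at lights off. Of 49 tested genes of phase I and II detoxification, 10 rose, 0 fell and 39 were not called, with a median of 0.18 and 38 positive values. Over all genes tested 1.36% were called higher and 50.9% had a positive change. Akr1c14, a reductase of steroids and other ketones, read 8.02, 8.39, 8.11 and 8.21 on the ZT0 arrays and 8.76, 8.89, 8.86 and 8.84 on the ZT12 arrays. The groups did not overlap, and Akr1c14 rose by 0.65 (SE 0.10, adjusted p = 0.00176), or 1.57-fold. Ephx1, an epoxide hydrolase, read 10.30, 10.17, 10.36 and 10.20 on the ZT0 arrays and 10.65, 10.77, 10.68 and 10.63 on the ZT12 arrays and rose by 0.42 (SE 0.065, adjusted p = 0.00176). Alas1, the first enzyme of heme synthesis, read 10.85, 10.94, 10.81 and 10.85 on the ZT0 arrays and 11.23, 11.26, 11.26 and 11.20 on the ZT12 arrays and rose by 0.37 (SE 0.058, adjusted p = 0.00189). Abcg2, an efflux pump, read 7.55, 7.38, 7.28 and 7.02 on the ZT0 arrays and 7.70, 7.68, 7.92 and 7.81 on the ZT12 arrays and rose by 0.47 (SE 0.094, adjusted p = 0.0129). These 4 genes were called in all 8 fits that left out a young array. The glutathione transferases Gsta3 (0.41), Gsta4 (0.43) and Gstm1 (0.21) rose too, but they belong to families of close copies whose probes may read more than 1 member, so the assignment to a gene is uncertain. Smaller rises were those of Sult1a1 (0.35), Fmo2 (0.18) and Cbr2 (0.18).

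The main cytochromes of the lung did not pass the test: Cyp2f2 of club cells had a change of 0.08 (adjusted p = 0.501), Cyp4b1 of -0.07 (adjusted p = 0.693) and Cyp1a1 of -0.06 (adjusted p = 0.924). Cyp2e1 had the largest positive value of the list, 1.23 (adjusted p = 0.134), and read 10.24 on ZT12 array 2, the array with the liver transcripts, against 8.45 to 8.69 on the other ZT12 arrays. Hepatocytes are rich in many genes of the list. Without ZT12 array 2 the number of genes that rose was 6, and without ZT0 array 4 it was 4. It was 5 without ZT12 array 1 or 3, 6 without ZT0 array 1 or ZT12 array 4, and 7 without ZT0 array 2 or 3. The detoxification median on ZT12 array 2 was 0.03, within the 0.01 to 0.09 of the other ZT12 arrays, and the ZT0 arrays spanned -0.16 to -0.10. The part of the liver transcripts in these rises was not tested. Of 26 NRF2 and redox genes 2 rose, against 1.36% of all genes tested. These were Gpx1 (0.23) and Osgin1 (0.31), and each was called in at most 2 of the 8 fits. Nqo1, a standard NRF2 target, had a change of 0.45 (adjusted p = 0.112) and Hmox1 of -0.10 (adjusted p = 0.707).

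**Figure D5:**
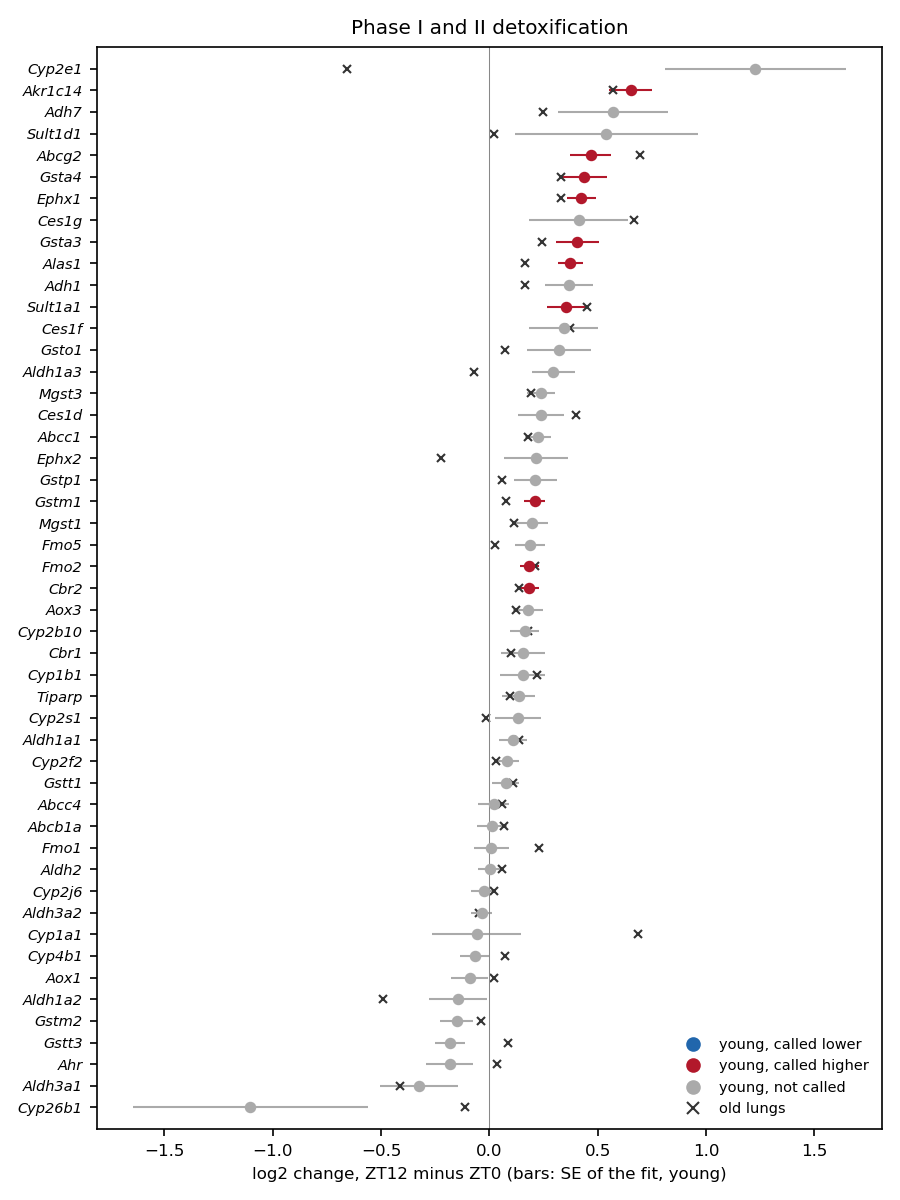
Change of each tested member of the phase I and II detoxification list (x axis, log2, ZT12 minus ZT0), with young lungs as points with standard error bars, coloured by call, and old lungs as crosses. The 10 called genes are all to the right of 0, from 0.18 (Cbr2) to 0.65 (Akr1c14), while the widest bars, Cyp2e1 and Cyp26b1, were not called.

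Hormone-driven genes were mixed. Corticosterone rises before the active phase of a mouse and acts through the glucocorticoid receptor. Of 28 tested glucocorticoid-induced genes 3 rose (Glul, Mt1 and Sult1a1), 1 fell (Cdkn1a) and 24 were not called. Among all genes tested 1.36% were called higher and 1.79% lower. A positive change was found in 23 of the 28, against 50.9% of all genes tested, and the median was 0.20. Glul, glutamine synthetase, read 10.66, 10.94, 10.51 and 10.63 on the ZT0 arrays and 11.11, 11.16, 11.16 and 11.07 on the ZT12 arrays and rose by 0.44 (SE 0.078, adjusted p = 0.00551). Mt1, a metallothionein that binds zinc and copper, rose by 0.30 (SE 0.07, adjusted p = 0.0307). Fkbp5, a much used marker of the receptor's activity, read 7.16, 7.89, 6.71 and 6.99 on the ZT0 arrays and 7.87, 7.80, 8.10 and 8.07 on the ZT12 arrays. Its ZT0 arrays spread by more than 1 log2 unit, ZT0 array 2 lay inside the ZT12 range, and the change of 0.77 (adjusted p = 0.0801) was not called. Zbtb16, another target, ranged from 7.97 to 10.67 within the ZT0 arrays, with a change of 0.86 (adjusted p = 0.388). Tsc22d3 had a change of 0.47 (adjusted p = 0.191). In each of the 3 genes ZT0 array 2 was the highest ZT0 array and ZT0 array 3 the lowest, and without ZT0 array 2 the number of the list's genes that rose was 4. It was 1 without ZT0 array 1, 3 or 4 or ZT12 array 2 or 4, and 2 without ZT12 array 1. Of 28 tested nuclear receptors 2 rose: Esr1, the estrogen receptor, rose by 0.45 (SE 0.078, adjusted p = 0.00455), and Nr3c2, the mineralocorticoid receptor, rose by 0.29 (SE 0.07, adjusted p = 0.0335). Esr1 was called in all 8 fits that left out 1 young array. The list had 2 rises only without ZT12 array 2 and 1 in every other such fit, so Nr3c2 was called in at most 1. Of 31 immediate early genes 0 were called by limma, with a median of 0.05. An unadjusted p under 0.05 was reached by 5 of them and by 16.7% of all genes tested. Of 27 fasting-induced genes 1 fell, Cd36, a fatty acid transporter, by 0.17, and 1 call in a list this short is near the share of all genes.

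Single cell cycle genes were among the calls. Wee1, the kinase that holds back entry to mitosis and a long-known clock target, read 7.43, 7.84, 7.26 and 7.38 on the ZT0 arrays and 8.58, 8.54, 8.92 and 8.41 on the ZT12 arrays and rose by 1.13. Cdkn1a, which encodes the cell cycle inhibitor p21, read 10.02, 10.67, 9.58 and 10.20 on the ZT0 arrays and 9.10, 9.50, 8.96 and 9.34 on the ZT12 arrays and fell by 0.90 (SE 0.21, adjusted p = 0.031). The highest ZT12 array of Cdkn1a lay just under the lowest ZT0 array, and the call was kept in 2 of the 8 fits that left out an array. Ccnjl, a cyclin-like gene, read 7.44, 7.21, 7.13 and 7.54 on the ZT0 arrays and 6.33, 6.30, 6.54 and 6.14 on the ZT12 arrays and fell by 1.00 (SE 0.11, adjusted p = 6.3e-05). Mcm2, part of the helicase that replicates DNA, rose by 0.28 (SE 0.061, adjusted p = 0.0209). Bub1, a mitotic checkpoint kinase, fell by 0.57 (SE 0.14, adjusted p = 0.0339) to a mean of 5.50, under the filter, which it passed through groups where it was brighter, and was called in 1 of the 8 fits. Rev1, a polymerase that bypasses damage, rose by 0.39 (SE 0.065, adjusted p = 0.00363). Of 34 genes of G1/S and replication 1 rose and 1 fell, and of 29 mitotic genes 1 rose and 1 fell, with medians of 0.05 and -0.04. In lists this short these counts are near the 1.36% higher and 1.79% lower of all genes tested.

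The remaining large changes belonged to no list. Fam124b, a gene whose role is not well known, read 7.84, 7.73, 7.70 and 7.90 on the ZT0 arrays and 6.39, 6.43, 6.35 and 6.42 on the ZT12 arrays. The ZT12 arrays lay close together, far under the ZT0 arrays, and Fam124b fell by 1.40 (SE 0.14, adjusted p = 2.63e-05), or 2.63-fold. Tspan4, a tetraspanin of the cell surface, read 7.51, 7.53, 7.55 and 7.43 on the ZT0 arrays and 8.41, 8.40, 8.46 and 8.23 on the ZT12 arrays and rose by 0.87 (SE 0.082, adjusted p = 1.89e-05). Slc46a3, a transporter of the lysosome membrane, read 8.52, 8.56, 8.62 and 8.63 on the ZT0 arrays and 9.32, 9.25, 9.24 and 9.35 on the ZT12 arrays and rose by 0.71 (SE 0.07, adjusted p = 2.8e-05). Both rose on every ZT12 array above every ZT0 array. Leo1, a subunit of the PAF complex that travels with RNA polymerase II, read 7.55, 7.71, 7.65 and 7.89 on the ZT0 arrays and 6.93, 6.79, 6.81 and 7.09 on the ZT12 arrays and fell by 0.80 (SE 0.082, adjusted p = 3.56e-05). Gprin3, a G protein regulator, fell by 0.83 (SE 0.082, adjusted p = 2.63e-05). Rasl11a, a small GTPase, fell by 0.95 (SE 0.10, adjusted p = 5.72e-05). Among rises, Coro2a, a coronin that binds actin, had a change of 0.68, Sytl5, which tethers vesicles through RAB27, of 0.67, Epha1, an ephrin receptor, of 0.65, Cys1, a protein of primary cilia, of 0.64, and Rnaseh2b, part of the enzyme that removes RNA from DNA, of 0.61. Among falls, Adamts17, a secreted metalloprotease, had a change of -0.90, Tmem171, a membrane protein, of -0.80, Gdpd2, a glycerophosphodiester phosphodiesterase, of -0.76, St6galnac3, a sialyltransferase, of -0.76, and Ahsa2, a relative of the HSP90 activator, of -0.75. Tmem171 had a mean of 5.15 at ZT12, under the filter of 5.63, and passed the filter through the ZT0 arrays (5.95), so its call is no support for a change. Vpreb3, a B cell gene, rose by 0.79 (SE 0.19, adjusted p = 0.0309). It was called in 2 of the 8 fits that left out 1 young array. Without ZT12 array 4, on which Vpreb3 and the B cell list were both highest, its change was 0.68 (adjusted p = 0.0851), and without ZT0 array 2 it was 0.67 (adjusted p = 0.0928). All of these genes but Vpreb3 were called in each fit that left out 1 young array. Of the 8 genes called among 784 long noncoding RNAs tested and the 22 among 1560 predicted genes, clones and small RNAs, none is described.

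Clock elements were counted in the same promoter windows. The E-box CACGTG occurs in windows of 29 of 172 genes called higher (16.9%), 27 of 212 called lower (12.7%) and 10.8% of all tested genes with a window, clock genes included. The REV-ERB and ROR site, TAGGTCA, was searched on both strands like the E-box and occurs in 3.49% of genes called higher, 2.83% of those called lower and 2.41% of all. Over all 32851 windows, 7.15% hold the E-box and 2.61% the REV-ERB and ROR site. Of the 30 genes with the largest changes, 25 have a window, 7 of them with an E-box and 2 with a REV-ERB and ROR site. Stretches of 60 bases are given for both genes with that site and for 2 E-box genes in each direction, the match in capitals, all 5′ to 3′ toward the gene.
Tspan4 (chr7:141476302-141476361, plus strand): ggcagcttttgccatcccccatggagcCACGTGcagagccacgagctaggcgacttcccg
Pfkfb3 (chr2:11502111-11502170, minus strand): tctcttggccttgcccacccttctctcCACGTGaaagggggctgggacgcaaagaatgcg
Ppp1r3c (chr19:36736676-36736735, minus strand): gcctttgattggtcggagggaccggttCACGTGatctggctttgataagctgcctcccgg
Gprin3 (chr6:59426373-59426432, minus strand): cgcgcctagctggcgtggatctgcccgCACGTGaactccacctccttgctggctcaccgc
Fam124b (chr1:80213931-80213990, minus strand): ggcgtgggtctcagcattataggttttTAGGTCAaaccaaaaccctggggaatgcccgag
Leo1 (chr9:75441434-75441493, plus strand): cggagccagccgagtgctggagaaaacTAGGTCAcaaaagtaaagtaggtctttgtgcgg
The E-box stands 51 bases before a start of Tspan4 and 53 before a start of Pfkfb3, which rose. In both genes this match lies in window 2, so the gene has another start. The E-box of Ppp1r3c stands 104 bases before the start and that of Gprin3 99, and both genes fell. The REV-ERB and ROR site stands 19 bases before the start of Fam124b and 63 before Leo1, which both fell. E-boxes thus lie in windows of genes that moved in either direction.

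Many immune and cell type lists held no call, and others held between 1 and 4. Over all genes tested 3.15% were called, 16.7% had an unadjusted p under 0.05 and 50.9% a positive change. In lists this short, 0 calls is near that share and shows no lack of change. Of 31 chemokines, 33 pattern recognition and NF-kappaB genes, 35 interferon-induced genes and 21 antigen presentation genes tested, 0 were called by limma, with 7, 8, 6 and 5 at an unadjusted p under 0.05 and medians of 0.03, -0.05, -0.04 and 0.15. In the last list 18 of 21 values were positive. Il18r1, the receptor of interleukin 18, read 10.29, 10.29, 10.34 and 10.16 on the ZT0 arrays and 9.48, 9.56, 9.40 and 9.86 on the ZT12 arrays and fell by 0.69 (SE 0.11, adjusted p = 0.00286), while its ligand Il18 had a change of 0.07 (adjusted p = 0.87) and the partner receptor Il18rap of 0.14 (adjusted p = 0.837). Vcam1, an adhesion molecule for leukocytes, fell by 0.32 (SE 0.066, adjusted p = 0.0139). In the complement list of 21 tested genes 2 rose and 1 fell, against 3.15% of all genes called: Cfb, factor B, rose by 0.37 (SE 0.073, adjusted p = 0.0123), C4b rose by 0.49 (SE 0.11, adjusted p = 0.0233) with overlapping groups, and Hc, which encodes component C5, fell by 0.43 (SE 0.07, adjusted p = 0.00319). Neutrophil markers had 0 calls by limma of 22 tested (0 at an unadjusted p under 0.05). The lists of alveolar macrophages, monocytes, T and natural killer cells, B and plasma cells, mesothelium and ciliated cells had 0 as well, with 2, 4, 6, 0, 3 and 3 at that level. Of 22 ciliated cell genes 21 had a positive change, with a median of 0.19. The ciliated list was highest on ZT12 array 4 (0.16), with the other ZT12 arrays at -0.21 to -0.15 and ZT0 arrays at -0.44 to -0.13. All 12 platelet and red cell genes were positive with a median of 0.53 and 0 calls by limma (0 at an unadjusted p under 0.05). Of 19 tested markers of arterial, venous and lymphatic endothelium 2 rose and 2 fell. Gja5, a connexin of arteries, fell by 0.29 (SE 0.06, adjusted p = 0.0156), Hey1, a NOTCH target of arteries, rose by 0.34 (SE 0.087, adjusted p = 0.0461), Pdpn, which also marks type 1 cells, rose by 0.24 (SE 0.051, adjusted p = 0.0196), and the fourth was Vcam1. Over the 8 fits that left out 1 young array the rises numbered 0 to 2 and the falls 1 to 2. Of 14 tested type 1 cell markers 1 rose, Pdpn, and 1 fell, Rtkn2, which fell by 0.21 (SE 0.054, adjusted p = 0.0459). Each of the 2 was called in at most 4 of the 8 fits. Of 24 tested fibroblast markers 1 rose and 2 fell: Tcf21, a transcription factor of lipid-storing fibroblasts, rose by 0.38 (SE 0.079, adjusted p = 0.0164), Macf1, which links microtubules and actin, fell by 0.30 (SE 0.06, adjusted p = 0.013), and Pdgfra is given above.

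The old lungs gave a second reading of each direction. There 917 genes were called (5.87%), 3.5% of the tested genes higher and 2.37% lower. Of the 492 genes called in young lungs, 289 were called in the same direction in old lungs, 125 higher and 164 lower, and these 289 are also part of the 917. The change differed between the ages, by the interaction term in limma, for 0 genes at an adjusted p of 0.05 and for 770 (4.93%) at an unadjusted p under 0.05. Among the 30 largest, Sprr1a, a protein of the cornified envelope of squamous cells, had the lowest interaction p. It read 6.89, 7.07, 7.23 and 7.31 on the ZT0 arrays and 6.32, 6.01, 6.02 and 6.04 on the ZT12 arrays in young lungs and fell by 1.03 (SE 0.12, adjusted p = 0.000116), without overlap. In old lungs it read 5.90, 6.05, 5.71, 5.86 at ZT0 and 5.70, 6.10, 5.83, 5.52 at ZT12, a change of -0.09. The difference of 0.94 (SE 0.17) had an adjusted p of 0.247. Dgat2 changed by 0.10 in old lungs, and its difference of -0.84 (SE 0.27) had an adjusted p of 0.942. For Slc46a3 the old change was 0.35, with an adjusted p of 0.911 for the difference. Neither these genes nor any other of the 30 was thus shown to differ between the ages. In old lungs Adm changed by -1.43, Mthfd1l by 1.05, Tspan4 by 0.92, Fam124b by -1.31, Ppp1r3c by -0.99 and Ccbe1 by 0.62, each called and close in size to the young change.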

How the data were processed

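The authors deposited a table of log2 intensity values for 41345 probe sets; the log2 scale was read from the values, and the normalization and background correction are not given in the sources used here. Total RNA was labelled by the Affymetrix WT PLUS method, per the labels' protocols. Symbols came from the platform annotation: 23521 probe sets carry 1 symbol, 1814 several and 16010 none here. The brightest single-symbol probe set stood for each of 22180 genes, and 15626 with a mean of at least 5.63 (the 30th percentile) were tested. Group means of all 16 arrays were fitted with limma 3.58.1 (R 4.3.3; lmFit, eBayes, Benjamini-Hochberg over all genes tested) with calls at 0.05 after adjustment. The fit was tested on simulated data.

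Named genes were the 15 largest rises and falls among called genes without overlap, up to 5 called genes per list by adjusted p, all called genes of short lists, and partners in a ligand, receptor or enzyme group; other members of the ER and detoxification lists were added after their values were seen. Genes and lists were chosen with earlier results of these data known. Alternatives were other filters, scalings, probe set rules, weights, a replicate block, only the young arrays, and each young array left out. Promoter windows came from RefSeq (GRCm38.p6), and 12129 tested genes had one. Figures were drawn with matplotlib 3.10.9.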

Additional observations from a re-analysis of the deposited data

Results flagged for a closer look

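In 19 of 330 groups of 4 young arrays (5.76%; gene values and list medians), 1 array stood apart from the other 3 by Dixon's 95% limit. Chance marks about 1 in 20 such groups. The liver list had its median at 2.11 on ZT12 array 2, with the other 3 arrays at -0.27 to -0.12. The ciliated cells list had its median at 0.16 on ZT12 array 4, with the other 3 arrays at -0.21 to -0.15. On ZT0 array 2, Avpr1a read 6.74 (other 3 arrays 6.92 to 6.95), Hc read 12.22 (other 3 arrays 12.07 to 12.10), Nqo1 read 6.30 (other 3 arrays 6.85 to 6.87). On ZT0 array 3, Fgd5 read 8.50 (other 3 arrays 8.64 to 8.65), Gsta3 read 8.78 (other 3 arrays 9.20 to 9.24). On ZT12 array 1, Abca1 read 9.78 (other 3 arrays 9.59 to 9.62), Ctnnb1 read 11.18 (other 3 arrays 11.06 to 11.08), Sprr1a read 6.32 (other 3 arrays 6.01 to 6.04). On ZT12 array 2, Cyp2e1 read 10.24 (other 3 arrays 8.45 to 8.69), Ddit3 read 7.76 (other 3 arrays 7.57 to 7.60), Hyou1 read 9.20 (other 3 arrays 9.33 to 9.34), Macf1 read 11.11 (other 3 arrays 11.29 to 11.33). On ZT12 array 4, Adamts17 read 6.96 (other 3 arrays 7.27 to 7.30), Cyp1a1 read 7.48 (other 3 arrays 6.56 to 6.63), Gdpd2 read 7.95 (other 3 arrays 7.48 to 7.56), Lipg read 8.95 (other 3 arrays 9.25 to 9.27), Nqo1 read 7.39 (other 3 arrays 7.08 to 7.12). No gene named had opposite directions in young and old lungs without overlap, and none had a called difference between the ages.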

How the results depend on the processing

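The number of genes called in young lungs (492: 213 higher, 279 lower) moved by more than 1.5 times under several alternatives. Without the filter on dim genes it was 296 (134 higher, 162 lower), with only the 8 young arrays in the fit 297 (141 higher, 156 lower), and with array weights 739 (340 higher). With both young arrays numbered 4 left out together, chosen after seeing the data, it was 211 (108 higher, 103 lower). Leaving out 1 young array at a time gave 258 to 392 genes, 120 to 206 higher and 138 to 233 lower. With the replicate number as a block within age, young lungs had 271 calls (119 higher, 152 lower) and old lungs 599 in place of 917. The labels do not say whether equal numbers pair the arrays. Deviations of same-numbered young arrays correlated at -0.0548 to 0.135, and 1 of the 8 correlated best with its own number. These values cannot settle whether same-numbered arrays shared their handling, and the main fit used no pairs. The interaction with age, 0 genes, had 1 without ZT0 array 3, 2 without ZT12 array 4, 1 with both arrays numbered 4 left out, and so 0 to 2 over single arrays. Changes of 2-fold or more numbered 21 and 20 with the block. Of the 127 called genes that the text or its rule names, 55 were called under every alternative. No called gene among them reversed its direction. The cause of these shifts was not tested. The number of arrays, 4 a group, limits the precision.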

Other observations

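Ion and metal transport held further single changes. Among all genes tested 1.36% were called higher and 1.79% lower. Of 34 tested ion channels, pumps and water channels 2 rose and 1 fell: Scnn1a, a subunit of the epithelial sodium channel that clears fluid from the airspace, rose by 0.30 (SE 0.069, adjusted p = 0.027), Slc9a3r1, a scaffold of apical transporters, rose by 0.22 (SE 0.055, adjusted p = 0.0427), and Kcnj15, a potassium channel, fell by 0.42 (SE 0.11, adjusted p = 0.042). Scnn1a read 11.28, 11.19, 11.09 and 11.10 on the ZT0 arrays and 11.43, 11.35, 11.57 and 11.50 on the ZT12 arrays. Scnn1a and Kcnj15 were each called in 3 of the 8 fits that left out 1 young array and Slc9a3r1 in 1. Without ZT0 array 2, ZT0 array 4 or ZT12 array 4 the list had 0 calls by limma, as it had with only the young arrays or with the replicate block. The other subunits of that channel had changes of -0.04 (adjusted p = 0.826) for Scnn1b and 0.00 (adjusted p = 0.987) for Scnn1g. Atp7b, a copper-exporting pump, read 8.53, 8.72, 8.46 and 8.43 on the ZT0 arrays and 8.90, 8.97, 9.15 and 9.01 on the ZT12 arrays and rose by 0.48 (SE 0.074, adjusted p = 0.00192). Its relative Atp7a fell by 0.25 (SE 0.063, adjusted p = 0.038), and Atox1, the chaperone that hands copper to both, rose by 0.27 (SE 0.067, adjusted p = 0.037). These 3 copper genes were picked after their values were seen. Atp7b was called in all 8 fits that left out 1 young array, Atp7a and Atox1 in 2.

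Single signalling genes outside the vessel lists were also called. In lists this short the WNT and NOTCH counts below are near the 1.36% higher and 1.79% lower of all genes tested. Adam17, the protease that sheds growth factors and cytokines from the cell surface, read 9.05, 9.16, 9.07 and 9.24 on the ZT0 arrays and 8.81, 8.72, 8.72 and 8.60 on the ZT12 arrays and fell by 0.41 (SE 0.06, adjusted p = 0.0012), without overlap. Efnb1, an ephrin ligand, fell by 0.34 (SE 0.085, adjusted p = 0.0418) and Ctnnb1, which encodes beta-catenin, fell by 0.16 (SE 0.041, adjusted p = 0.0403). Adam17 was called in all 8 fits that left out 1 young array, Efnb1 and Ctnnb1 in 1 each. Of 44 WNT genes tested 1 rose and 1 fell, Ctnnb1, but the rise was called in 0 of the 8 fits, and 7 of the 8 had 0 falls. With only the young arrays or with the replicate block the WNT list had 0 calls by limma. Of 24 NOTCH genes 1 rose, in 2 of the 8 fits, and 1 fell, Adam17.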
